A study of Saccharomyces cerevisiae with 25 samples.

Results

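The 32 genes described here encode the enzymes of the tricarboxylic acid (TCA) cycle, the glyoxylate cycle, gluconeogenesis and the reactions that feed them, in the budding yeast Saccharomyces cerevisiae. They were chosen by name, and all 32 of the 32 names matched a row among the 6648 named rows of the deposited table. RNA was sequenced from cells of strain background BY4741 that carried pho84pr-YFP, a fluorescent reporter behind the PHO84 promoter, and phm3 damp, a DAmP allele of VTC4 (PHM3 is its older name), which makes vacuolar polyphosphate. A DAmP allele disturbs the end of the transcript and usually lowers its amount. Cells were sampled every 15 min in no-phosphate medium from 15 to 360 min (24 libraries), and a single library came from the same strain in high-phosphate medium at 0 min. All 25 libraries carry both the reporter and the DAmP allele, and a strain with neither was not analysed here.

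The TCA cycle oxidises acetyl units in the mitochondrion and supplies carbon skeletons such as 2-oxoglutarate, the precursor of glutamate. In yeast growing on glucose, the cycle works largely as 2 branches, and many of its genes, with those of the glyoxylate cycle and gluconeogenesis, are repressed by glucose. The genes from citrate synthase to isocitrate dehydrogenase are known targets of the Rtg1 and Rtg3 factors of the retrograde pathway, which signals from mitochondria to the nucleus, and most of the cycle is also activated by the HAP complex. Levels are given in RPM (reads per 1000000 reads), and differences are log2 differences with their standard error (SE). A gene was called when the limma adjusted p was under 0.05 and the absolute log2 difference was at least 1. Since RPM are shares of a bulk library, fewer cells of a type and less RNA per cell cannot be told apart.

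Short stretches upstream of 6 members are shown: CIT2, ACO1, IDH1 and PYC1 because they were called at 15 to 45 or 60 to 90 min, CIT1 as the mitochondrial counterpart of CIT2, and LPD1 because its stretch holds the letters bound by Pho4, the activator of the phosphate pathway. Sequences are from the RefSeq R64 genome, 5′ to 3′ on the coding strand. Capitals mark GTCAC, the R box of the Rtg1 and Rtg3 factors, on either strand (GTGAC where it reads on the opposite one), except in LPD1, where they mark CACGTG, the Pho4 letters. The stretches are CIT2 (chrIII:122627-122680, minus strand), CIT1 (chrXIV:631407-631446, minus), ACO1 (chrXII:737977-738016, minus), IDH1 (chrXIV:559349-559488, minus), PYC1 (chrVII:384696-384725, plus) and LPD1 (chrVI:103378-103417, minus).
CIT2: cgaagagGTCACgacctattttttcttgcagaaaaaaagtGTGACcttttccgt
CIT1: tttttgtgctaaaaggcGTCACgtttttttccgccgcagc
ACO1: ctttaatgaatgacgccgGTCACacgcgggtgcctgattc
IDH1: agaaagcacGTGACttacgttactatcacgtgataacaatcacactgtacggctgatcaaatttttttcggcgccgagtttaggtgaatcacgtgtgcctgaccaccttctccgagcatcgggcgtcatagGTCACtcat
PYC1: aggagacacagcGTCACgtgttttgccatt
LPD1: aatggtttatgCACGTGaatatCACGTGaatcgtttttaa

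GTCAC was found, on either strand, in the 500 bases upstream of the start codon of 20 of the 32 members (62.5%), against 42.4% of 6000 promoters. IDH2, which moved with IDH1, holds none in that window. CACGTG was found upstream of 5 members (15.6%), namely IDH1 with 3 matches, LPD1 and ACS1 with 2 each, and IDP2 and PYC1 with 1 each, against 6.23% of all promoters. In IDH1, PYC1, IDP2 and ACS1 an R box overlaps the Pho4 letters. CCAAT, the box of the HAP complex, was upstream of 30 members against 62.4% of all promoters. AGGGG, the stress element, was upstream of 22 members against 34.1%. The core of the carbon source element was upstream of 20 members (62.5%) against 20.8%. These are matches of letters, and binding was not measured.

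Recovered depth was 4.27 M reads at 0 min (M, 1000000 reads), with a median of 1.12 M over all libraries and 0.147 M in the shallowest, at 345 min. The libraries at 270, 330 and 345 min held under 0.5 M reads. In 5 libraries (75, 120, 255, 345 and 360 min) the level of ADA2 was below 10 log2 RPM, apart from the libraries beside them. Among the members with a value in every library, SDH4 was the lowest in them, with a mean of -1.01 log2 against the libraries on both sides (4 of the 5 have both). CIT1 had a mean of -0.67, low at 75, 120 and 255 min and at 0.16 at 345 min. Over the 2955 genes with a value in every library, the library most like those at 105 and at 120 min was the 0 min library, with a median absolute log2 difference of 0.14 and 0.23. The phosphate transporter gene PHO84, however, was at 607 RPM at 105 min and 653 RPM at 120 min, against 122 RPM at 0 min. Set against 0 min, the middle gene of the 4742 tested differed by 0.07 log2 at 15 to 45 min, by 0.13 at 60 to 90 min and by 0.44 at 195 to 225 min. A difference is called relative where that middle value has been taken off.

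A value is listed only from 10 reads upwards. Of the 32 members, 21 had a value in every library and 25 entered the tests. The 7 that did not were CIT3, SDH1, IDP3, MLS1, PCK1, FBP1 and SFC1, which are described from their values.

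**Figure D1:**
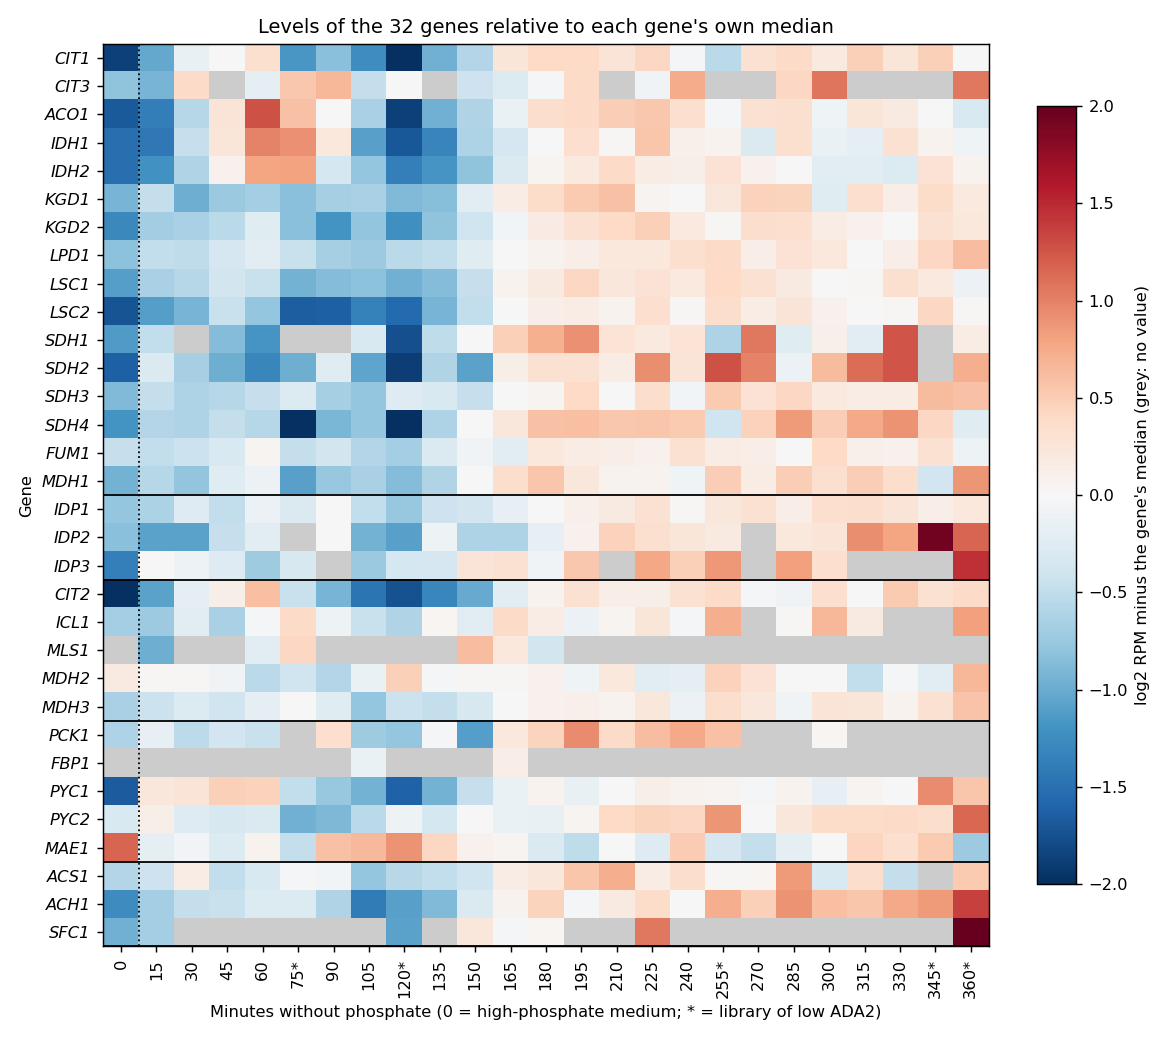
Levels of the 32 members (rows, grouped by list) in the 25 libraries (columns, by minutes without phosphate, 0 being high phosphate), as log2 RPM minus the gene's own median; grey marks a missing value and an asterisk a library of low ADA2. CIT1, ACO1, IDH1, IDH2 and CIT2 are high around 45 to 60 min, low around 120 min and high again from 165 min, while most rows below them turn high only from about 150 min.

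ACO1, IDH1 and IDH2, which turn citrate into 2-oxoglutarate, rose early, by 4.93-fold for ACO1 and 4.64-fold for IDH1 at 60 to 90 min against 0 min, and no later step of the cycle was called then. They were lower again at 105 to 135 min. At 195 to 225 min 13 of the 14 tested cycle genes were called above 0 min, where 17.9% of all genes were called higher. With the middle gene's difference of 0.44 log2 taken off, 8 of the 14 still differed by at least 1. The share of all genes that did so was not counted. PYC1 and CIT2 were called at 15 to 45 min. CIT1, ACO1, IDH1 and IDH2 were then above 0 min in all 3 libraries but not called. So were later-step genes such as KGD2, LPD1, LSC1 and LSC2, and 22 of the 25 tested members had a positive difference. The median difference was 0.42 log2 over the tested members and 0.07 over all genes. MAE1 was the single member called lower at 195 to 225 min. The gluconeogenic FBP1 and the glyoxylate gene MLS1 stayed near the limit of 10 reads.

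ACO1, the mitochondrial aconitase, was at 173, 302 and 538 RPM at 15, 30 and 45 min, at 1093, 673 and 449 RPM at 60, 75 and 90 min, and at 140.4 RPM at 0 min. IDH1, a subunit of the NAD-dependent isocitrate dehydrogenase, was at 36.3, 71.0 and 115 RPM at 15, 30 and 45 min, at 194, 183 and 112 RPM at 60, 75 and 90 min, and at 34.2 RPM at 0 min. IDH2, its other subunit, was at 64.7, 99.6 and 159.6 RPM, then at 259.9, 263 and 118 RPM at the same times, with 53.1 RPM at 0 min. All 3 genes climbed at each step from 15 to 60 min, and every one of these libraries was above 0 min. IDH1 stood at a median of 0.718 times IDH2 from 15 to 90 min and 0.601 times from 195 to 270 min, against 0.643 times at 0 min. CIT2, the peroxisomal citrate synthase and the standard reporter of the retrograde pathway, was at 89.8, 166 and 203 RPM at 15 to 45 min and at 285, 138 and 98.9 RPM at 60 to 90 min, against 39.1 RPM at 0 min. CIT1, the mitochondrial citrate synthase, was at 127, 233, 259, 323, 115 and 144 RPM from 15 to 90 min, against 70.7 RPM at 0 min. Its 75 min value came from a library of low ADA2. PYC1, a cytosolic pyruvate carboxylase that makes oxaloacetate, had reached 463 RPM at 15 min, 472 at 30 min and 550.1 at 45 min, against 124 RPM at 0 min, so its largest step lay before the first library.

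**Figure D2:**
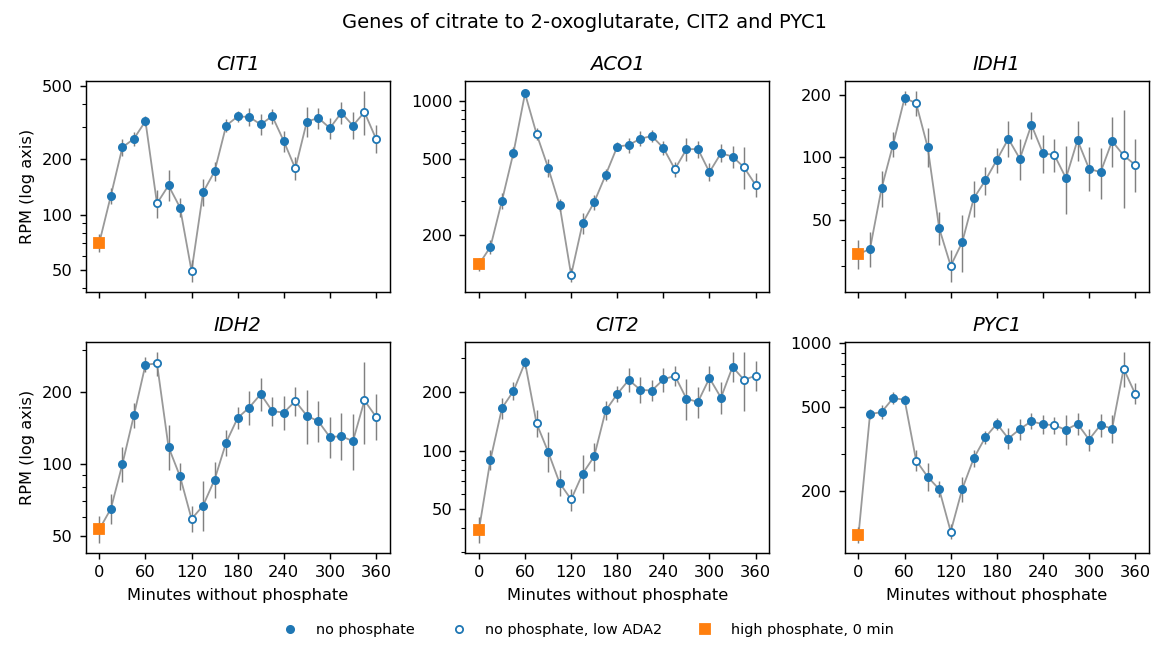
RPM on a log axis against minutes without phosphate for CIT1, ACO1, IDH1, IDH2, CIT2 and PYC1, with exact 95% Poisson intervals of the read number; the square is high phosphate and open circles are libraries of low ADA2. ACO1 reached 1093 RPM at 60 min, stood at 124 RPM at 120 min and at 656 RPM at 225 min, and the other 5 genes also lie lower at 120 min than at 60 and at 225 min.

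At 15 to 45 min against 0 min, 2 of the 25 tested members were called higher and none lower, where 0.844% of all 4742 genes were called higher and 0.0633% lower. PYC1 differed by 1.99 ± 0.37 (SE, limma adjusted p = 0.0103) and CIT2 by 1.89 ± 0.45 (adjusted p = 0.0437), both from 3 libraries against 1. The CIT2 call was close to the threshold, and leaving out any of 13 single libraries, most of them outside these windows, brought the count down to 1. With quantile normalization neither was called, PYC1 differing by 1.67 (adjusted p = 0.139) and CIT2 by 1.63 (adjusted p = 0.429). PYC2, the paralog of PYC1, differed by 0.16 ± 0.34 and was not called. PYC1 stood at 2.28, 3.02 and 3.69 times PYC2 at 15, 30 and 45 min, against 0.823 times at 0 min, and the difference between the paralogs was not tested.

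At 60 to 90 min against 0 min, 4 members were called higher, which is 16% of the 25 tested where 0.844% of all genes were called higher and 0.0211% lower. They were ACO1 (2.30 ± 0.50, limma adjusted p = 0.0310), IDH1 (2.21 ± 0.43, adjusted p = 0.0136), IDH2 (1.92 ± 0.42, adjusted p = 0.0319) and CIT2 (2.01 ± 0.45, adjusted p = 0.0331). CIT1 had a difference of 1.31 ± 0.52 and PYC1 one of 1.40 ± 0.37, and neither was called (adjusted p = 0.321 and 0.0866). The other 9 core cycle genes with a value in every library, KGD1, KGD2, LPD1, LSC1, LSC2, SDH3, SDH4, FUM1 and MDH1, lay between -0.05 and 0.53, and none was called. The 60 min library carried this result: without it no member was called, and without the 75 min library 1 was. Without the 5 libraries of low ADA2, 3 of the 4 were called. None was called with quantile normalization, after centring without those 5, or without those 5 and the libraries under 0.5 M reads. Over the 6 libraries from 15 to 90 min against 0 min, no member was called (limma, 7 members at an unadjusted p under 0.05), where 0.127% of all genes were called higher and 0.0211% lower.

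The gap between the sections of the cycle could be followed within each library, where scaling of the library cancels. The mean of CIT1, ACO1, IDH1 and IDH2, set against 0 min, was 0.38, 1.20, 1.79 and 2.49 log2 at 15, 30, 45 and 60 min. The mean of the 9 genes from 2-oxoglutarate to oxaloacetate was 0.43, 0.36, 0.59 and 0.66 log2 at the same times. The first section thus led the second by 1.83 log2 at 60 min and 1.86 at 75 min, and by -0.20 to 0.46 at 105 to 135 min. From 195 to 360 min the lead was between 0.29 and 0.75 log2. These sections were drawn with the values known, so the gap is a description. The second section leaves out SDH1 and SDH2, which lack a value in at least 1 library. SDH2 was above 0 min in every library from 15 to 90 min.

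At 105 to 135 min the early genes were lower. ACO1 was at 286, 124 and 231 RPM at 105, 120 and 135 min, against 1093, 673 and 449 RPM at 60, 75 and 90 min. IDH1 was at 45.6, 30.0 and 39.1 RPM, against 194, 183 and 112 RPM. IDH2 was at 88.5, 58.6 and 66.7 RPM, against 259.9, 263 and 118 RPM. The windows did not overlap for any of these 3 genes, and the share of all genes without overlap was not counted. The difference was -1.78 ± 0.35 for ACO1 (limma adjusted p = 0.0397), -2.07 ± 0.31 for IDH1 (adjusted p = 0.00359) and -1.51 ± 0.30 for IDH2 (adjusted p = 0.0397). These 3 members were among only 7 genes called lower in the whole table, 0.148% of 4742, and 0% were called higher. CIT2 had a difference of -1.25 ± 0.32, CIT1 of -0.97 ± 0.37 and PYC1 of -0.90 ± 0.26, none of them called, and the medians were -0.35 over the tested members and -0.08 over all genes. The windows hold the low-ADA2 libraries at 75 and 120 min. Without the 5 libraries of low ADA2 none of the 3 was called, with a difference of -1.45 for ACO1, -1.80 for IDH1 and -1.19 for IDH2 (adjusted p 0.499, 0.387 and 0.499). Leaving out 60, 75 or 120 min alone also left none called.

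Of the 21 members with a value in every library, 11 had their lowest no-phosphate level at 120 min. The share of all genes with their lowest level there was not counted, and 120 min is a library of low ADA2. Without the 5 libraries of low ADA2, the lowest level lay at 15 min for ACO1, IDH1 and IDH2. For CIT1, CIT2 and PYC1 it then lay at 105 min. At 105 to 135 min against 0 min no member was called, and none had an unadjusted p under 0.05 in limma, where 0.169% of all genes were called higher and 0.0211% lower. The single differences lay between -0.52 and 0.76. For the libraries at 105 and 120 min the 0 min library was also the nearest over the whole table, and no test sets the members apart there.

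**Figure D3:**
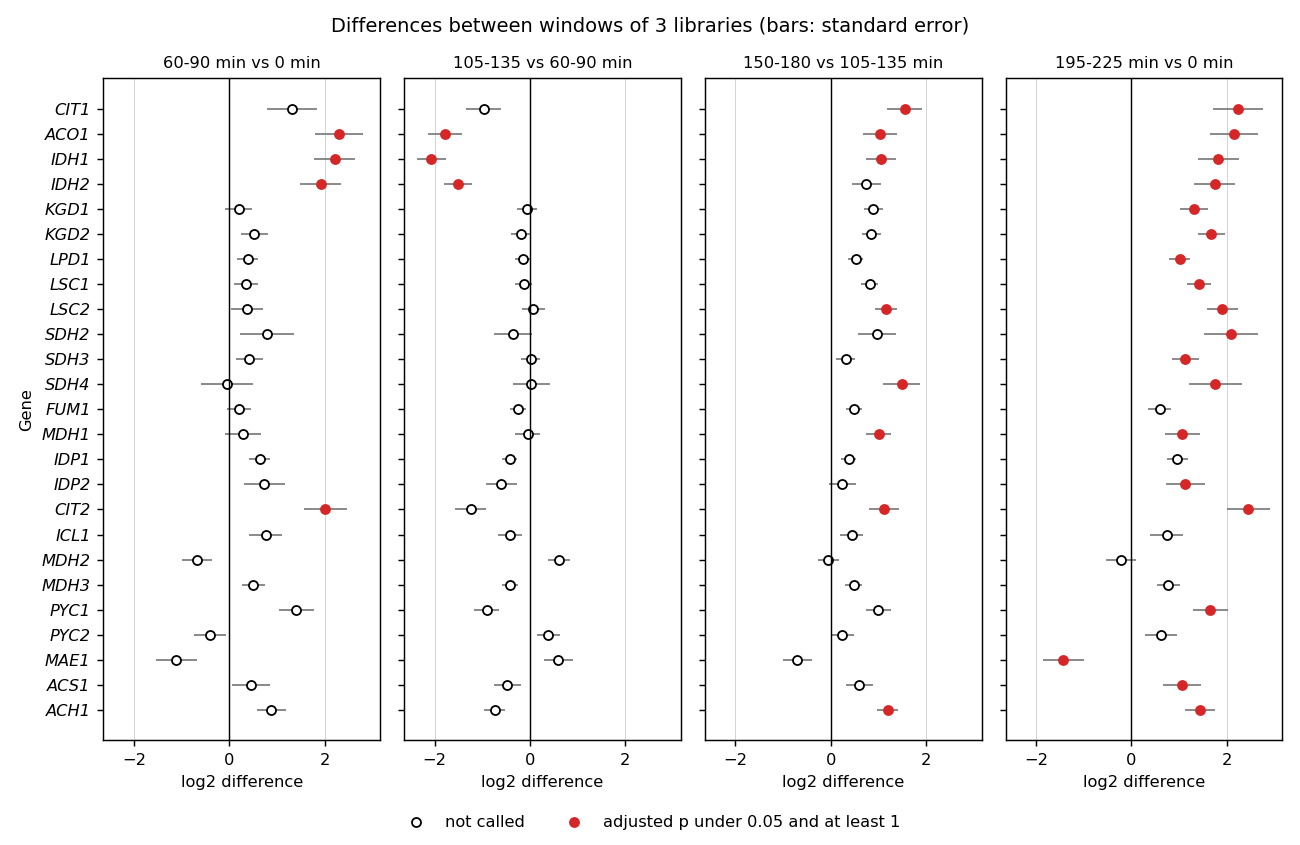
Log2 differences with SE of the 25 tested members in 4 comparisons between windows of 3 libraries (3 against 1 where the second is 0 min); red points were called. ACO1, IDH1 and IDH2 are red at 60 to 90 min against 0 min and at 105 to 135 against 60 to 90 min, and 19 members are red at 195 to 225 min against 0 min.

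A second rise followed. At 150 to 180 against 105 to 135 min, 8 members were called higher (32% of the 25), where 8.14% of all genes were called higher and 6.41% lower. SDH4, the membrane anchor of succinate dehydrogenase, was at 134, 157 and 199 RPM, against 77.8, 28.2 and 86.7 RPM at 105 to 135 min. ACH1, a CoA transferase acting on acetyl units in mitochondria, was at 74.4, 95.8 and 124 RPM, against 34.5, 42.9 and 49.6 RPM. CIT1 was at 172, 305 and 342 RPM, against 109, 49.5 and 132 RPM. None of the 3 overlapped between the windows, and how many of all genes did not overlap was not counted. Their differences were 1.49 ± 0.39 for SDH4 (limma adjusted p = 0.00596), 1.20 ± 0.22 for ACH1 (adjusted p = 3.5e-04) and 1.55 ± 0.37 for CIT1 (adjusted p = 0.00303). LSC2, CIT2, IDH1, ACO1 and MDH1 were also called, at 1.16, 1.11, 1.05, 1.04 and 1.01. Without the libraries of low ADA2, which include 120 min, 3 members were called: CIT1 (1.12), LSC2 (1.02) and ACH1 (1.21). Leaving out 120 min alone left 3 called, and leaving out 180 min left 4. After centring 3 were called, and with quantile normalization 2.

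At 195 to 225 min, a stretch with no library of low ADA2 or under 0.5 M reads, 18 of the 25 tested members were called higher than at 0 min and 1 lower. That is 72% higher, where 17.9% of all genes were called higher and 7.61% lower. The median log2 difference was 1.31 over the members and 0.44 over all genes. With each library centred on its median gene, 11 members were called, 10 higher (CIT1, CIT2, ACO1, IDH1, IDH2, KGD2, LSC2, SDH2, PYC1 and ACH1) and 1 lower (MAE1), and with quantile normalization 8 were. The share of all genes called after centring or with quantile normalization is not given here. Each of these comparisons rests on the single 0 min library.

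By role, the citrate synthases CIT2 and CIT1 had the largest differences of the tested members. CIT2 was at 232, 206 and 204 RPM at 195, 210 and 225 min, against 39.1 RPM at 0 min, a difference of 2.45 ± 0.45 (limma adjusted p = 3.4e-04). CIT1 was at 340.4, 309.7 and 344 RPM, against 70.7 RPM, a difference of 2.23 ± 0.52 (adjusted p = 0.00246). CIT3, a minor mitochondrial citrate synthase that also acts on propionyl-CoA, had a value in 17 libraries and lay between 5.76 and 23.0 RPM in no phosphate, against 6.32 RPM at 0 min. ACO1 differed by 2.16 ± 0.50, IDH1 by 1.82 ± 0.43 and IDH2 by 1.74 ± 0.42 at 195 to 225 min. The late levels of these 3 lay below their peak: ACO1 at 195 to 360 min was between 365 and 656 RPM, against 1093 RPM at 60 min.

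The next steps were called in this second phase. KGD1 and KGD2 encode components of the 2-oxoglutarate dehydrogenase complex, and LPD1 its dihydrolipoamide dehydrogenase, which pyruvate dehydrogenase shares. KGD1 was at 90.8, 94.7 and 66.2 RPM at 195 to 225 min, against 33.5 RPM at 0 min, and its 6 values from 15 to 90 min lay between 32.1 and 45.8 RPM. KGD2 was at 178, 189 and 200.2 RPM, against 59.2 RPM. Both were called (1.31 ± 0.29 and 1.67 ± 0.29), and LPD1 lay just past the fold threshold at 1.01 ± 0.23, with a relative difference of 0.57. LSC1 and LSC2, the subunits of succinyl-CoA ligase, which forms ATP from succinyl-CoA, were called at 1.42 ± 0.25 and 1.91 ± 0.33. LSC1 stood at 2.59 times LSC2 at 0 min, and at a median of 2.24 times at 15 to 90 min, 1.88 times at 195 to 270 min and 1.60 times at 285 to 360 min. In LSC2 only 64% of the values were whole read numbers, so its level is less certain.

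**Figure D4:**
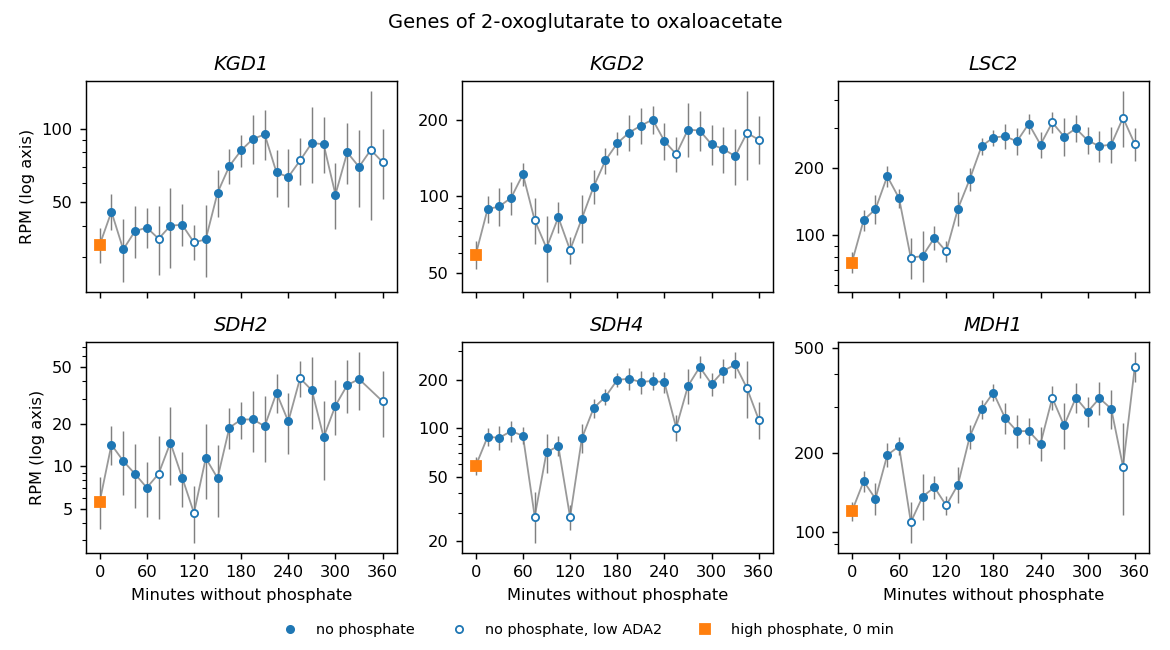
RPM on a log axis against minutes without phosphate for KGD1, KGD2, LSC2, SDH2, SDH4 and MDH1, drawn as in the plot of the early genes. KGD1 lay between 32.1 and 45.8 RPM from 15 to 90 min and at 66.2 to 94.7 RPM from 195 to 225 min; SDH4 was at 28.4, 28.2 and 101 RPM in the low-ADA2 libraries at 75, 120 and 255 min, below the libraries beside them.

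The genes of succinate dehydrogenase, which is also complex II of the respiratory chain, were uneven in level. Per kilobase of coding length, SDH3 had a median of 517 RPM per kb at 195 to 270 min and SDH4 one of 353, against 34.1 for SDH2 and 12.0 for SDH1. All 4 encode subunits of the same enzyme. SDH2, the iron-sulfur subunit, was at 21.5, 19.2 and 33.1 RPM at 195 to 225 min, against 5.61 RPM at 0 min, a difference of 2.09 ± 0.56 (limma adjusted p = 0.00675). SDH4 was at 203, 193 and 197 RPM, against 58.5 RPM, a difference of 1.76 ± 0.55 (adjusted p = 0.0168). SDH3 was called at 1.13 ± 0.28. SDH1, the flavoprotein subunit, was not tested, and its values at 195 to 225 min were 35.8, 23.0 and 21.8 RPM, against 8.66 RPM at 0 min. FUM1, the fumarase, was at 301, 299 and 288 RPM, against 197 RPM, a difference of 0.59 ± 0.25 that was not called (adjusted p = 0.0628).

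Of the malate dehydrogenases 1 was called. MDH1, the mitochondrial enzyme, was called at 1.07 ± 0.37, with 271, 242 and 242 RPM at 195 to 225 min against 119.8 RPM at 0 min, and its relative difference was 0.63. MDH3, the peroxisomal enzyme, differed by 0.77 ± 0.24 (limma adjusted p = 0.0180), under the fold threshold. MDH2, the cytosolic enzyme of gluconeogenesis, was at 104, 128 and 93.6 RPM, against 125 RPM, a difference of -0.21 ± 0.31. MDH1 stood at a median of 2.19 times MDH2 at 195 to 270 min and 2.68 times at 285 to 360 min, against 0.961 times at 0 min.

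Of the 2 tested NADP-dependent isocitrate dehydrogenases, which make NADPH, only the cytosolic IDP2 was called at 285 to 360 against 15 to 90 min. It was at 24.8, 25.6, 40.8, 37.1, 81.9 and 48.0 RPM from 285 to 360 min, against 10.2, 10.2, 15.5, 18.5 and 21.4 RPM in the 5 libraries with a value from 15 to 90 min. These ranges did not overlap, though the share of all genes without overlap was not counted. The difference was 1.45 ± 0.26 (limma adjusted p = 1e-04). The highest value came from the library of 0.147 M reads at 345 min, where the limit of 10 reads lay at 68.2 RPM. At 195 to 225 min IDP2 was at 22.7 to 29.4 RPM, against 11.9 RPM at 0 min, and was called there too. The mitochondrial IDP1 was at 141 to 218 RPM from 15 to 90 min and at 239 to 279 RPM from 285 to 360 min, against 128 RPM at 0 min. The peroxisomal IDP3 was not tested and lay between 7.93 and 36.5 RPM in no phosphate, against 5.15 RPM at 0 min. It was at 8.08 to 13.2 RPM in 5 libraries from 15 to 90 min. From 285 to 360 min it was at 16.6 to 36.5 RPM in 3 libraries and under 10 reads in the rest.

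PYC1 and MAE1, which act around pyruvate, were called in opposite directions. PYC1 was at 355, 393 and 428 RPM at 195 to 225 min, against 124 RPM at 0 min, a difference of 1.66 ± 0.37 (limma adjusted p = 0.00176). PYC2 was at 195, 247 and 253 RPM, against 151 RPM, a difference of 0.61 ± 0.34 that was not called. MAE1, the mitochondrial malic enzyme, which turns malate into pyruvate, was at 59.0 RPM in the first library at 15 min and at 46.6, 66.5 and 55.7 RPM at 195 to 225 min, against 149.7 RPM at 0 min. It fell by 1.43 on the log2 scale with an SE of 0.43 (adjusted p = 0.0129), and the relative difference was -1.87. Its values at 90, 105 and 120 min were 100.3, 104 and 124 RPM, the 3 highest in no phosphate, and every no-phosphate library lay below 0 min.

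MLS1, FBP1 and SFC1 were close to the floor, while PCK1 and ICL1 lay above it in most libraries. MLS1, the malate synthase, had a value in 6 libraries, from 3.39 to 10.2 RPM, each from 10 to 17 reads. FBP1, fructose-1,6-bisphosphatase, had a value in 2 libraries, at 105 and 165 min, with 10 reads in each (3.97 and 4.81 RPM). At 0 min neither reached 10 reads, which in that library is 2.34 RPM. SFC1, the mitochondrial carrier that exchanges succinate for fumarate, had a value in 8 libraries, at 11.3 RPM at 225 min and 24.9 RPM at 360 min, against 2.81 RPM at 0 min. From 195 to 360 min the limit of 10 reads lay at 8.07 to 68.2 RPM, so a level like that of 0 min was not detectable there. PCK1, the phosphoenolpyruvate carboxykinase, was at 26.3, 17.9 and 21.0 RPM at 195 to 225 min, against 8.89 RPM at 0 min (38 reads, exact 95% Poisson interval 6.29 to 12.2 RPM). Such an interval covers counting error alone. From 285 to 360 min PCK1 had a value in 1 of 6 libraries, at 14.1 RPM. It was missing at 285, 315 and 360 min, where the limit of 10 reads lay at 14.6, 16.3 and 19.2 RPM. ICL1, the isocitrate lyase, was at 23.9, 26.9 and 30.7 RPM at 195 to 225 min, against 16.1 RPM at 0 min. Its difference of 0.74 ± 0.35 was not called.

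**Figure D5:**
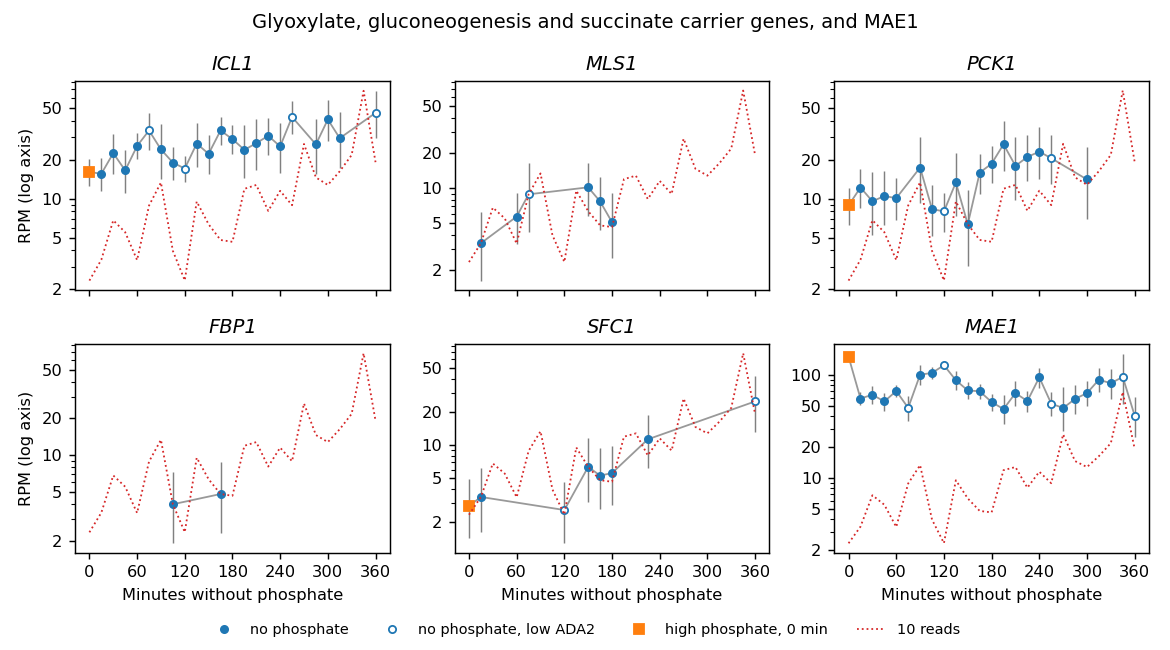
RPM on a log axis against minutes without phosphate for ICL1, MLS1, PCK1, FBP1, SFC1 and MAE1, with the level of 10 reads in each library dotted. MLS1 and FBP1 have values in 6 and 2 libraries, all near the dotted line, while MAE1 lies at 40.3 to 124 RPM in the no-phosphate libraries, against 149.7 RPM in high phosphate.

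For acetyl units, ACH1 was at 89.6, 104 and 118 RPM at 195 to 225 min, against 37.9 RPM at 0 min (1.44 ± 0.31, limma adjusted p = 0.00128). From 285 to 360 min it lay at 134 to 234 RPM. ACS1, the glucose-repressed acetyl-CoA synthetase, was at 49.0, 55.0 and 37.1 RPM at 195 to 225 min, against 22.2 RPM at 0 min (1.06 ± 0.39, limma adjusted p = 0.0397). Its relative difference was 0.62, and it was not called after centring.

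The last window was also set against the first. At 285 to 360 against 15 to 90 min, 5 of the 25 members were called higher (20%) and none lower, where 12.9% of all genes were called higher and 3.4% lower, so the share was not far from the background. They were SDH2 (1.46 ± 0.32), IDP2 (1.45 ± 0.26), SDH4 (1.43 ± 0.35), ACH1 (1.30 ± 0.23) and LSC2 (1.22 ± 0.24). ACO1, IDH1 and IDH2 differed by 0.03 ± 0.33, -0.03 ± 0.31 and 0.02 ± 0.27, and both windows held high values. After centring 3 members were called, and with quantile normalization none. At 195 to 270 against 105 to 180 min, SDH2 (1.35 ± 0.31) and CIT2 (1.15 ± 0.27) were called (limma adjusted p = 0.00220 and 0.00243), which is 8% of members where 5.08% of all genes were called higher and 3.23% lower, and without the libraries of low ADA2 neither was. That count ran from 1 without 120 min to 9 without 180 min, with 7 without 165 min and 5 without 255 min. At 105 to 180 against 15 to 90 min no member and no gene was called (0%, limma, 4 members at an unadjusted p under 0.05, and over all genes 175 higher and 59 lower). At 285 to 360 against 195 to 270 min no member and no gene was called either (0%, limma, 2 members at an unadjusted p under 0.05, and over all genes 414 higher and 196 lower). The spline over the no-phosphate libraries called 16 of 25 members, 64% where 39.4% of all genes were called, and with 6 in place of 4 degrees of freedom it called 20, among them ACO1, IDH1 and IDH2.

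Per kilobase, the order of levels also moved. At 195 to 270 min LSC1 had a median of 524 RPM per kb (488 to 566) and SDH3 one of 517 (400 to 597), ranges that overlap, followed by SDH4 at 353 (185 to 372). At 0 min the highest were SDH3 (225 RPM per kb), LSC1 (198) and MDH3 (153). Of 30 members ranked, MDH2 was 16th at 195 to 270 min, against 7th at 0 min, and MAE1 was 21st, against 10th.

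Genes around these enzymes were read from 10 lists. At 195 to 225 min against 0 min, 26 of their 68 tested genes were called higher (38.2%), where 17.9% of all genes were. The lists are small, and no list was tested as a whole. Of the assembly factors and paralogs of succinate dehydrogenase, 6 of 7 were called higher, led by the assembly factor SDH6 (2.57 ± 0.37), the SDH4 paralog SHH4 (2.12 ± 0.44) and the assembly factor SDH5 (1.77 ± 0.57). Of 9 genes of acetate, ethanol, lactate and carnitine use, 5 were called higher, led by ALD4 (2.11 ± 0.36), the mitochondrial aldehyde dehydrogenase that makes acetate, DLD1 (1.38 ± 0.38), the D-lactate dehydrogenase, and CYB2 (1.36 ± 0.30), the L-lactate dehydrogenase. In CYB2 0% of the values were whole read numbers, so its level is less certain. ALD4 was also called at 15 to 45 min against 0 min (2.27 ± 0.36). Of 5 glutamate genes, GDH3 (1.99 ± 0.52) and GDH2 (1.77 ± 0.30) were called higher. Both encode glutamate dehydrogenases, which interconvert glutamate and 2-oxoglutarate.

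Of 8 pyruvate dehydrogenase genes, the kinase genes PKP1 (1.5 ± 0.40) and PKP2 (1.40 ± 0.45), whose products inhibit the complex, were called higher. Among relatives of the members, DAL7 (2.12 ± 0.37), a malate synthase of allantoin breakdown, and ICL2 (1.21 ± 0.32) were called higher. Of 10 carrier genes, MPC3 (2.04 ± 0.30), a subunit of the mitochondrial pyruvate carrier, and DIC1 (1.10 ± 0.37), the dicarboxylate carrier, were called higher. Of 6 genes of the GID ubiquitin ligase, which marks gluconeogenic enzymes for breakdown when glucose returns, 4 were called higher, led by GID8 (1.83 ± 0.27), VID28 (1.62 ± 0.44) and UBC8 (1.45 ± 0.41). Of 11 carbon-source regulators OAF1 (1.36 ± 0.32) and GAL83 (1.07 ± 0.25) were called higher, and of 6 retrograde genes BMH1 (1.00 ± 0.22). For carriers, carbon-source regulators and retrograde genes the share called was near the 17.9% over all genes. No called gene of the carbon-source or retrograde list had a relative difference of at least 1. In UBC8 and BMH1 72% of the values were whole read numbers. None of 3 HAP genes was called.

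Of the transcription regulators, 6 were looked up. RTG3, a factor of the retrograde pathway, was at 10.2 to 29.2 RPM in 21 no-phosphate libraries, against 10.5 RPM at 0 min, and its difference at 195 to 225 min was 0.97 ± 0.39 (limma adjusted p = 0.0586). HAP4, the regulatory subunit of the HAP complex, was at 4.22 to 21.1 RPM in 17 no-phosphate libraries, against 4.68 RPM at 0 min. ADR1 was at 9.53 to 34.5 RPM in 18 no-phosphate libraries, against 7.02 RPM, and CAT8 at 3.39 to 59.5 RPM in 14, against 3.04 RPM. Both activate glucose-repressed genes. SIP4 had a value in 2 libraries, and RTG1 is listed with no value. HAP4, ADR1, CAT8, SIP4 and RTG1 were not tested. The limit of 10 reads lay at 2.34 RPM at 0 min and at up to 68.2 RPM in no phosphate. Libraries without a value are left out of these ranges, so lower levels are missed. The lowest values of ADR1 and CAT8 were at that limit.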

How the data were processed

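The authors deposited log2 values, 1 column per sample, after alignment with Bowtie to build R64, per the submitters' processing notes. Raised to the power of 2, columns sum to 1000000, so they were read as log2 RPM, although the series' design text names the first time point as the base. The counter, annotation and strand are not given in the sources used here. Low values are multiples of 1 read, and the lowest value is 10 reads. Dividing by the step gave 94.9 to 97.5% whole reads (tolerance 0.02) among values under 200 reads, and the depth: 4.27 to 0.147 M reads (M, 1000000). The reads served for intervals, per-kilobase levels and precision weights.

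The 24 no-phosphate libraries formed 4 windows of 6 consecutive time points. The labels name no separate cultures, and p-values therefore measure scatter between consecutive samples, real change included. Group means were fitted with limma 3.58.1 in R 4.3.3 to 4742 genes (listed at 0 min and in 4 or more of the 6 libraries of each window), with Benjamini-Hochberg adjustment over all of them, and time courses with a natural spline of 4 degrees of freedom. Windows of 3 libraries, in a fit of their own, were chosen after the values had been seen. The fits of 6-library windows and of the spline were tested on simulated data. Members, lists and sections of the cycle were chosen with earlier results of these data known. All 32 members are named. Of the 10 other lists, at most the 3 largest called differences per list and direction are named, plus 6 regulators. A result for 1 gene of these lists is not reported here. Alternatives were scaling, filters, weights, autocorrelation, spline flexibility and left-out libraries.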

Additional observations from a re-analysis of the deposited data

Results flagged for a closer look

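In each window of 6 libraries, the highest and lowest values of the 25 tested members were set against the range of the window. Of 100 such groups, 6 had an end value farther from the rest than Dixon's 95% criterion allows, and chance gives about 1 in 20. In 4 of the 6 the library was one of low ADA2. SDH4 was low at 28.4 RPM at 75 min, where the nearest other library of 15 to 90 min had 70.8 RPM, and again at 101 RPM at 255 min, where the nearest of 195 to 270 min had 183 RPM. PYC2 was high at 414 RPM at 360 min, with 244 RPM as the nearest of 285 to 360 min. MDH2 was high at 152 RPM at 120 min, with 117 RPM as the nearest of 105 to 180 min. FUM1 was high at 284 RPM at 60 min, with 219.8 RPM as the nearest, and at 336 RPM at 240 min, with 302 RPM as the nearest. The part of low ADA2 in these values was not tested.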

How the results depend on the processing

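No paired analysis was possible because the labels give the windows no shared replicate numbers. Of 59 called member results, 12 were called under every alternative run, among them CIT1, CIT2, ACO1, KGD2, LSC2, PYC1 and MAE1 at 195 to 225 min against 0 min, and 0 reversed. Over all alternatives a called result was lost in 226 of 1984 cases, and uncalled differences changed sign in 194. Counts of called members moved as follows, and the share of all genes called under each alternative is not given beside them. At 15 to 90 min against 0 min (0 called) it was 2 in windows of 3, and 1 without low ADA2, centred or not. At 195 to 270 against 105 to 180 min (2) it was 1 centred, 0 with quantiles, 1 with values required in all libraries, 0 without low ADA2, centred or not, and 1 also without libraries under 0.5 M reads. At 285 to 360 against 15 to 90 min (5) it was 3 centred, 0 with quantiles, 3 with values in all libraries and 2 centred without low ADA2. For the spline (16) it was 6 centred, 9 with quantiles and 7 centred without low ADA2. At 15 to 45 min against 0 min (2) it was 0 with quantiles and 1 without libraries under 0.5 M reads. At 60 to 90 min against 0 min (4) it was 0 with quantiles, 0 centred without low ADA2, and 0 without both low ADA2 and shallow libraries. At 105 to 135 against 60 to 90 min (3) it was 0 with quantiles, 1 without shallow libraries, and 0 in all 3 settings without low ADA2. At 150 to 180 against 105 to 135 min (8) it was 3 centred, 2 with quantiles, 3 without low ADA2, 3 also without shallow libraries, and 1 centred without low ADA2. At 195 to 225 min against 0 min (19) it was 11 centred, 8 with quantiles and 12 centred without low ADA2. Settings without low ADA2 were chosen after seeing the data, and the causes were not tested. Leaving out single libraries changed the counts too. It gave 0 to 0 for 15 to 90 and 105 to 135 min against 0 min, 105 to 180 against 15 to 90 and 285 to 360 against 195 to 270 min. It gave 1 to 9 for 195 to 270 against 105 to 180 min (1 without 120 min, 9 without 180 min), 5 to 6 for 285 to 360 against 15 to 90 min, 13 to 16 for the spline, and 1 to 2 for 15 to 45 min against 0 min. It gave 0 to 5 for 60 to 90 min against 0 min (0 without 60 min), 0 to 4 for 105 to 135 against 60 to 90 min (0 without 60, 75 or 120 min), 3 to 12 for 150 to 180 against 105 to 135 min (3 without 120 min, 4 without 180 min), and 16 to 19 for 195 to 225 min against 0 min. Autocorrelation was modelled only in windows of 6, where residuals of neighbours correlated above 0. Levels under 10 reads, and so FBP1 and MLS1, were beyond the depth.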
